A study of Mus musculus with 8 samples.

Results

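The genes described here are 46 very long autosomal mouse genes of neural adhesion, of the synapse or of known fragile sites, and the values are the adenines called as modified inside them. The genes were taken by name, and a site belonged to a gene when it lay between the gene's start and end in the RefSeq annotation of mm10 (GRCm38.p6). All 46 names were found there, on 17 of the 19 autosomes, with lengths from 183.0 kb (Nrg2) to 2271 kb (Ptprd) and a median of 1137 kb. Together the genes covered 56.7 Mb without overlap and held 309 of the 17418 sites of the series. They held 67 of 3862 sites in L of WT, 55 of 3044 in L of KO, 128 of 7142 in S of WT and 59 of 3370 in S of KO, which is 1.73%, 1.81%, 1.79% and 1.75% of each list.

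The DNA came from mouse embryonic stem (ES) cells of a C57BL6 x CBA background, cultured without feeders, at passage 5 to 10. Wild-type cells (WT), which the labels name TT2, were compared with cells carrying a knockout (KO) of Alkbh1, a gene of the AlkB dioxygenase family, and the labels do not say whether the KO cells were 1 clone. Chromatin was precipitated without crosslinking with a customized H2A.X antibody, and the recovered DNA was sequenced on single molecules, with long DNA (L) and short DNA (S) kept apart. Lists are named WT L or L of WT, and so on. Each of the 4 groups had 2 replicates, but both point to 1 list per group, so no difference between groups has a replicate check. The 95% intervals below are exact, treat sites as independent and cover counting error only.

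In single-molecule real-time sequencing the polymerase pauses at some modified bases, and the pause relative to that predicted for unmodified DNA is the inter-pulse duration (IPD) ratio. H2A.X is a histone variant that is phosphorylated around DNA breaks. Genes of this size take many hours to transcribe, they replicate late in many cell types, and several of them are known as common fragile sites, places that tend to break when replication is slowed. Most of the proteins act in neurons, as adhesion molecules, receptors and channel partners, and the lists say nothing on whether the genes were expressed in these ES cells.

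Contexts of 41 bases are given for the sites the results turn on, 5′ to 3′ on the strand of the call, with the called adenine in capitals. The first 6 had the highest modification score of their list inside the genes, ties included. Scores of 41 to 49 compare with a lowest deposited score of 20.
Ptprd (WT L, chr4:76601248-76601288, plus strand): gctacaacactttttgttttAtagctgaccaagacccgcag
Auts2 (KO L, chr5:131757873-131757913, plus strand): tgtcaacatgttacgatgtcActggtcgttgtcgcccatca
Ctnna2 (WT S, chr6:77940470-77940510, plus strand): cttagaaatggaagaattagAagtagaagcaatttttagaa
Sox5 (WT S, chr6:144189587-144189627, minus strand): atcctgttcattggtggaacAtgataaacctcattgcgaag
Ntm (KO S, chr9:29478758-29478798, plus strand): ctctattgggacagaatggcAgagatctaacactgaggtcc
Pde4d (KO S, chr13:109280470-109280510, plus strand): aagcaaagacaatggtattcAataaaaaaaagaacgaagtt

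These 6 sites rested on coverage of 9 to 21. The IPD ratio was 3.58 in Ptprd, 2.76 in Auts2, 3.23 in Ctnna2, 8.63 in Sox5, 4.64 in Ntm and 8.91 in Pde4d. The modified fraction was given for all of them except the Sox5 site and was 100% each time. The identification score, which states how well the kinetics fit N6-methyladenine, was 26, 13, 5, 16, 10 and 24 in the order printed.

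The next 4 contexts each belong to a cluster, which is a run of 3 or more sites of 1 list with gaps of at most 100 bases, and the site with the highest score of the cluster is shown. The genes held 4 clusters, 2 in each WT list, or 12.9 per 1000 sites, against 15.5 in the rest of the autosomes. The genes held 67 sites in L of WT, 55 in L of KO, 128 in S of WT and 59 in S of KO. Clusters per 1000 sites were 29.9 in WT L against 11.8 in the rest, and 15.6 in WT S against 20.1. No difference between the lists was tested.
Auts2 (WT S, chr5:132189027-132189067, plus strand): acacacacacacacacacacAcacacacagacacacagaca
Ctnna2 (WT S, chr6:77125216-77125256, plus strand): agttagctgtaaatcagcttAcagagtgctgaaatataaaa
Macrod2 (WT L, chr2:140899600-140899640, plus strand): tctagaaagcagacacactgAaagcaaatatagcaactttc
Sox5 (WT L, chr6:144289901-144289941, plus strand): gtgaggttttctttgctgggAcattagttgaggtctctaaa

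The Auts2 cluster had 5 sites within 240 bases, 2 on the plus and 3 on the minus strand, and the site shown lies in a CA dinucleotide repeat. The other clusters had 3 sites each within 35 bases in Ctnna2, 82 in Macrod2 and 45 in Sox5. Median coverage was 15, 21, 11 and 26 in Auts2, Ctnna2, Macrod2 and Sox5, and the median IPD ratio was 2.23, 1.99, 3.06 and 2.42. The last 6 contexts are the KO S sites of Nrg1, which gained the most sites in KO S of all 46 genes. They were chosen after their values were seen.
Nrg1 (KO S, chr8:32283674-32283714, minus strand): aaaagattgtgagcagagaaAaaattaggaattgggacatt
Nrg1 (KO S, chr8:32413406-32413446, minus strand): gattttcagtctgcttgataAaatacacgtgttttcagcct
Nrg1 (KO S, chr8:32619176-32619216, plus strand): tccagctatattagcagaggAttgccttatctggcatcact
Nrg1 (KO S, chr8:32683014-32683054, minus strand): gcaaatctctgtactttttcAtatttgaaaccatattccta
Nrg1 (KO S, chr8:32767081-32767121, minus strand): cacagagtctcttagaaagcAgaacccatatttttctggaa
Nrg1 (KO S, chr8:32767123-32767163, plus strand): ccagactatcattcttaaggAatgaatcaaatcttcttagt

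The Nrg1 sites were spread along the gene, with only the last pair close together. Their IPD ratios were 1.77, 2.76, 8.37, 5.88, 2.98 and 4.23 in the order printed, at coverage of 20, 12, 14, 7, 7 and 8. Their identification scores were 3, 7, 20, 6, 3 and 18.

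The first comparison asked whether adenines were called more or less densely in these genes than elsewhere on the autosomes. Density in the 46 genes was lower than in the rest of the autosomes in each of the 4 lists, and each interval of the ratio included 1. The genes held 1.18 sites per Mb in L of WT (95% interval 0.916 to 1.50), 0.970 in L of KO (0.731 to 1.26), 2.26 in S of WT (1.88 to 2.69) and 1.04 in S of KO (0.792 to 1.34). The rest of the autosomes, without the genes and without 3 windows of very dense sites on chromosomes 2, 9 and 14, held 1.41, 1.07, 2.65 and 1.21 sites per Mb. The ratio of the genes to that rest was 0.839 in L of WT (0.649 to 1.07), 0.903 in L of KO (0.678 to 1.18), 0.852 in S of WT (0.709 to 1.01) and 0.862 in S of KO (0.654 to 1.12). Against all autosomal sequence without the windows, the genes included, the ratios of the genes were 0.842, 0.905, 0.855 and 0.865.

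With the 4 lists added together, a sum chosen after seeing the data, the genes held 5.45 sites per Mb and the ratio to the rest was 0.860 (0.766 to 0.962). With sites of a list within 1 kb counted as 1 locus, 269 loci gave a ratio of 0.882 (0.778 to 0.995). A lower density was also seen in other genes of 500 kb or more, though these were shorter than the 46, with a median of 663 kb. The 170 other protein-coding autosomal genes of 500 kb or more held 1.03, 0.869, 2.19 and 1.05 sites per Mb in L of WT, L of KO, S of WT and S of KO. Their ratio to the remaining autosomes was 0.722 (0.600 to 0.862), 0.800 (0.653 to 0.971), 0.819 (0.723 to 0.926) and 0.861 (0.716 to 1.03). The 46 genes against these 170 had ratios of 1.15 (0.839 to 1.55), 1.12 (0.791 to 1.56), 1.03 (0.828 to 1.28) and 0.993 (0.717 to 1.36), so no difference between the sets was detectable in any list.

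**Figure D1:**
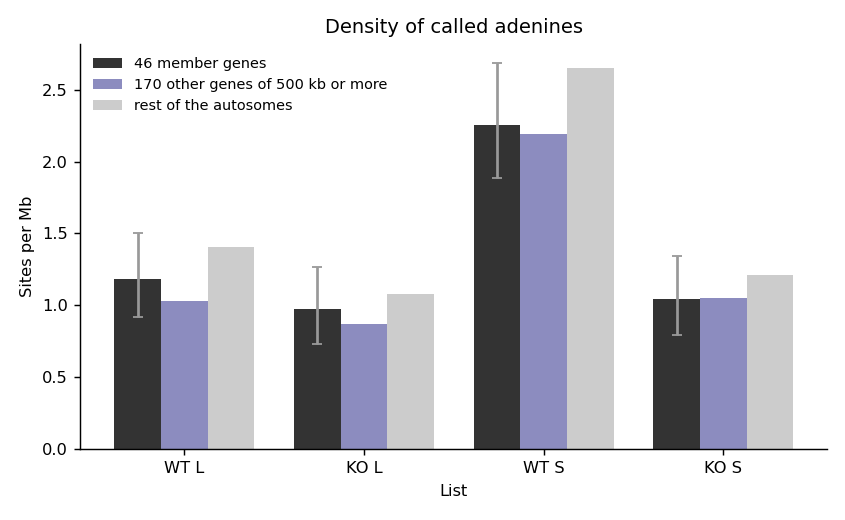
Called adenines per Mb (y axis) in each list (x axis) in the 46 genes (dark bars, with exact 95% Poisson intervals), in 170 other protein-coding genes of 500 kb or more and in the rest of the autosomes. The 46 genes sit below the rest of the autosomes in each list, from 0.970 against 1.07 in KO L to 2.26 against 2.65 in WT S. In each list their intervals take in both the other long genes and the rest of the autosomes.

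Most of the genes carried at least 1 site. A site was present in 31 of 46 genes in L of WT, 28 in L of KO, 43 in S of WT and 31 in S of KO, against 50.6%, 41.2%, 67.6% and 51.2% of the 170 other genes of 500 kb or more, which were shorter with a median of 663 kb. Among genes of 1000 kb or more, 24, 22, 32 and 24 of 32 members and 14, 12, 19 and 15 of 23 other genes held a site. A site in every one of the 4 lists was found in 16 of 46 genes and in 19 of the 170 others, or, at 1000 kb or more, in 12 of 32 and 5 of 23. Grid1 and Ctnnd2 held none in any list, as did 11 of the 170 others. Over the 4 lists a gene held 0 to 17 sites with a median of 6, and longer genes held more. Across the 46 genes Pearson's r between length and sites was 0.31 and Spearman's rho 0.31, values that describe genes sharing the same 4 lists.

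The density of single genes was set against that of the rest of the autosomes. The density over the 4 lists was 6.34 sites per Mb in the rest of the autosomes. The interval lay above that value for Sox5, with 14 sites or 14.7 per Mb (8.02 to 24.6), and for Wwox, with 12 sites or 13.1 per Mb (6.79 to 23.0). These are 2 of 46 genes, against 1.76% of the 170 other long genes of 500 kb or more, and 4.25% of the 1012 others at least as long as Nrg2, so the share was near the background. At 1000 kb or more there were 0 of 32 members and 0 of 23 others. The interval lay below the density of the rest for 7 genes (15.2%), against 2.94% of the 170 other long genes and 0.494% of the 1012 others. At 1000 kb or more it lay below for 5 of 32 members against 1 of 23 others. The 7 genes were Lsamp (2.73 per Mb), Cntnap2 (2.23), Dlg2 (2.53), Lrp1b (2.43), Lrrc4c (1.52), Ctnnd2 and Grid1. Lsamp, Cntnap2, Dlg2 and Lrp1b were among the longest of the 46 genes, and the interval is narrower in longer genes. The result for Wwox and Lsamp depended on the reference. The rest of chromosome 8 held 8.55 sites per Mb, inside the interval of Wwox. The rest of chromosome 16 held 5.64, inside that of Lsamp (1.00 to 5.94). The rest of chromosome 6 held 5.79, still under the interval of Sox5. The bounds were not adjusted for the number of genes.

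**Figure D2:**
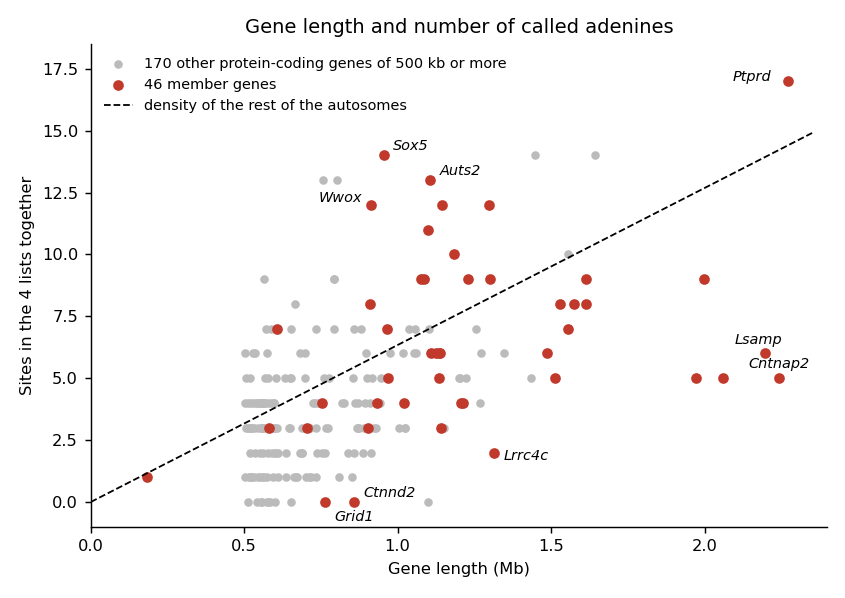
Sites in the 4 lists together (y axis) against gene length in Mb (x axis) for the 46 genes (red) and 170 other protein-coding genes of 500 kb or more (grey), with a dashed line at the density of the rest of the autosomes (6.34 sites per Mb). Sox5 and Wwox lie far above the line, while Lsamp, Cntnap2 and Lrrc4c lie far below it.

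The genes of ErbB signalling held 25 sites in 3.45 Mb. Nrg1, Nrg2 and Nrg3 encode neuregulins, growth factors of the EGF family, and Erbb4 encodes their receptor tyrosine kinase. Nrg1 (chromosome 8, 31807452 to 32891609) held 0 sites in L of WT, 2 in L of KO, 1 in S of WT and 6 in S of KO, so KO was above WT in both parts. Erbb4 (chromosome 1, 68031884 to 69108576) held 1, 4, 3 and 1 in the same order, with more in KO only in L. Nrg3 held 3, 0, 2 and 1, and Nrg2, the shortest of the 46 genes, held a single site in KO S. The KO to WT ratio of this group in S, 9 sites against 6, was 3.29 times that of the rest of the autosomes (1.05 to 11.3), and 6 of the 9 KO sites were in Nrg1. As loci, 8 against 6, it was 2.83 (0.858 to 9.89), and the interval included 1.

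The 7 genes grouped here as fragile-site enzymes and receptors held 51 sites in 9.95 Mb, or 0.808 times the density of the rest (0.601 to 1.06). This ratio is of these 7 genes alone and not of all fragile-site genes. Wwox, which encodes an oxidoreductase with WW domains and is a tumour suppressor at a common fragile site, held 1 site in L of WT, 4 in L of KO, 4 in S of WT and 3 in S of KO (chromosome 8, 114439635 to 115352712). Fhit, which encodes a hydrolase of dinucleoside polyphosphates and is the other classical fragile-site gene, held 0, 0, 7 and 2 (chromosome 14, 9550092 to 11162061), so that all its sites came from S. Macrod2, which encodes an enzyme that removes ADP-ribose from proteins, held 4, 3, 2 and 0 (chromosome 2, 140395303 to 142392966), most of them in L. Pde4d, which encodes a cyclic AMP phosphodiesterase, held 0, 3, 4 and 2. Lrp1b, which encodes a large receptor of the LDL receptor family, held 1, 1, 3 and 0 in 2058 kb, among the lowest densities of all. Immp2l, which encodes a subunit of a mitochondrial inner membrane peptidase, held 4 sites in all, and Galntl6, a gene of the N-acetylgalactosaminyltransferase family, held 3.

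Cell adhesion genes of the immunoglobulin and leucine-rich repeat type held 30 sites in 7.33 Mb, with a density 0.645 times that of the rest (0.435 to 0.921), or 0.735 (0.492 to 1.06) as loci. Lsamp, Opcml, Ntm and Negr1 encode the IgLON proteins, which are anchored to the neuronal membrane. Lsamp, the third longest gene, held 1 site in L of WT, 0 in L of KO, 5 in S of WT and 0 in S of KO. Opcml held 3, 1, 1 and 1, and its neighbour on chromosome 9, Ntm, held 1, 2, 1 and 1. Negr1 held 4 sites, all in WT S. Cadm2, which encodes a synaptic adhesion molecule, held 2, 1, 3 and 1, while Lrrc4c, which encodes a ligand of netrin-G, held only 2 sites in 1314 kb, both in WT S.

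Among the catenins and cadherins, 29 sites lay in 4.71 Mb. Ctnna2, which encodes the neural alpha-catenin that links cadherins to actin, held 2 sites in L of WT, 1 in L of KO, 7 in S of WT and 1 in S of KO (chromosome 6, 76881637 to 77979815), and 3 of the 7 formed the cluster shown above. Cdh13, which encodes a cadherin with a lipid anchor, held 5, 1, 4 and 0 (chromosome 8, 118140017 to 119324929), with fewer in KO in both parts. Ctnna3 held 3, 2, 3 and 0, and Ctnnd2, which encodes a delta-catenin of neurons, held none in 856.8 kb. In S the group had 14 sites in WT and 1 in KO, and the ratio was 0.157 times that of the rest (0.0037 to 1.03), with an interval that included 1.

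The neurexin superfamily had the lowest density of the groups, with 16 sites in 4.76 Mb, 0.530 times that of the rest (0.303 to 0.862) and 0.547 (0.299 to 0.918) as loci. Nrxn3, which encodes a presynaptic receptor, held 3, 2, 3 and 0 sites in L of WT, L of KO, S of WT and S of KO. Cntnap2, which encodes a contactin-associated protein of the axon and is the second longest of the 46 genes at 2241 kb, held 1, 0, 1 and 3. Cntnap5a of the same family held 3 sites in all.

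Partners of ion channels held 25 sites in 5.47 Mb. Dpp6 and Dpp10 encode inactive peptidase homologues that act as auxiliary subunits of A-type potassium channels. Dpp6 (chromosome 5, 26817357 to 27727500) held 5 sites in L of WT, 0 in L of KO, 2 in S of WT and 1 in S of KO, and Dpp10 held 1, 1, 1 and 2. Kcnip4, which encodes a calcium sensor of the same channels, held 0, 1, 3 and 1. Fgf14, whose product modulates sodium channels from inside the cell, held 3 sites in all, and Nkain2, which encodes a partner of the sodium pump, held 1 in each list.

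Synaptic scaffolds and the receptor gene Grid1 held 18 sites in 4.83 Mb, 0.588 times the density of the rest (0.348 to 0.929). Magi1, which encodes a scaffold of cell junctions, held 0, 3, 3 and 1 in 608.5 kb, a high density for the group. Magi2 held 1, 0, 2 and 3, and Dlg2, which encodes a postsynaptic scaffold, held 1, 0, 1 and 3 in 1973 kb. Grid1, which encodes a delta glutamate receptor subunit, held none.

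Receptor phosphatases and the CSMD genes held 30 sites in 5.20 Mb. Ptprd, which encodes a receptor phosphatase that organizes presynapses, had the most sites of all 46 genes and was also the longest (chromosome 4, 75941237 to 78211742). It held 5 sites in L of WT, 1 in L of KO, 6 in S of WT and 5 in S of KO, and its density of 7.49 per Mb (4.36 to 12.0) took in that of the autosomes. Ptprt held 1, 1, 3 and 1. Csmd3 held 1 in each list and Csmd2 held 3 in WT S alone, and both encode large membrane proteins with CUB and sushi domains.

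Genes of axon guidance and the teneurins held 38 sites in 6.23 Mb, 0.962 times the density of the rest (0.680 to 1.32). Tenm2 and Tenm3 encode teneurins, transmembrane adhesion proteins that bind latrophilins. Tenm3 (chromosome 8, 48225665 to 49522824) held 1 site in L of WT, 4 in L of KO, 6 in S of WT and 1 in S of KO, and Tenm2 held 2, 3, 1 and 3. Robo1 and Robo2 encode receptors for Slit proteins, and Robo2 held 0, 0, 4 and 3 against 1, 0, 1 and 2 in Robo1. Dab1, which encodes an adaptor of reelin signalling, held 0, 2, 2 and 2.

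The nuclear regulators Auts2, Sox5 and Rbfox1 had the highest density of the groups with more than 1 gene, 35 sites in 3.59 Mb or 1.54 times the rest (1.07 to 2.14), and 1.40 (0.921 to 2.04) as loci. Sox5, which encodes a transcription factor of the SoxD type, held 3 sites in L of WT, 2 in L of KO, 8 in S of WT and 1 in S of KO (chromosome 6, 143828425 to 144782287). Auts2, whose product joins a Polycomb complex in neurons, held 1, 4, 8 and 0 (chromosome 5, 131437333 to 132543220), and 5 of the 8 were the cluster at the CA repeat. Rbfox1, which encodes a splicing factor, held 3, 1, 3 and 1. The KO to WT ratio of the group in S, 2 sites against 19, was 0.231 times that of the rest (0.026 to 0.959). As loci, 2 against 14, it was 0.303 (0.033 to 1.32), and the interval included 1. Sgcz, which encodes a sarcoglycan of muscle and stands alone in its group, held 6, 2, 1 and 3 (chromosome 8, 37517840 to 38661705). Bounds for the 11 groups were not adjusted for their number, and the genes were chosen with earlier results of these data known, so the groups give no independent evidence.

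**Figure D3:**
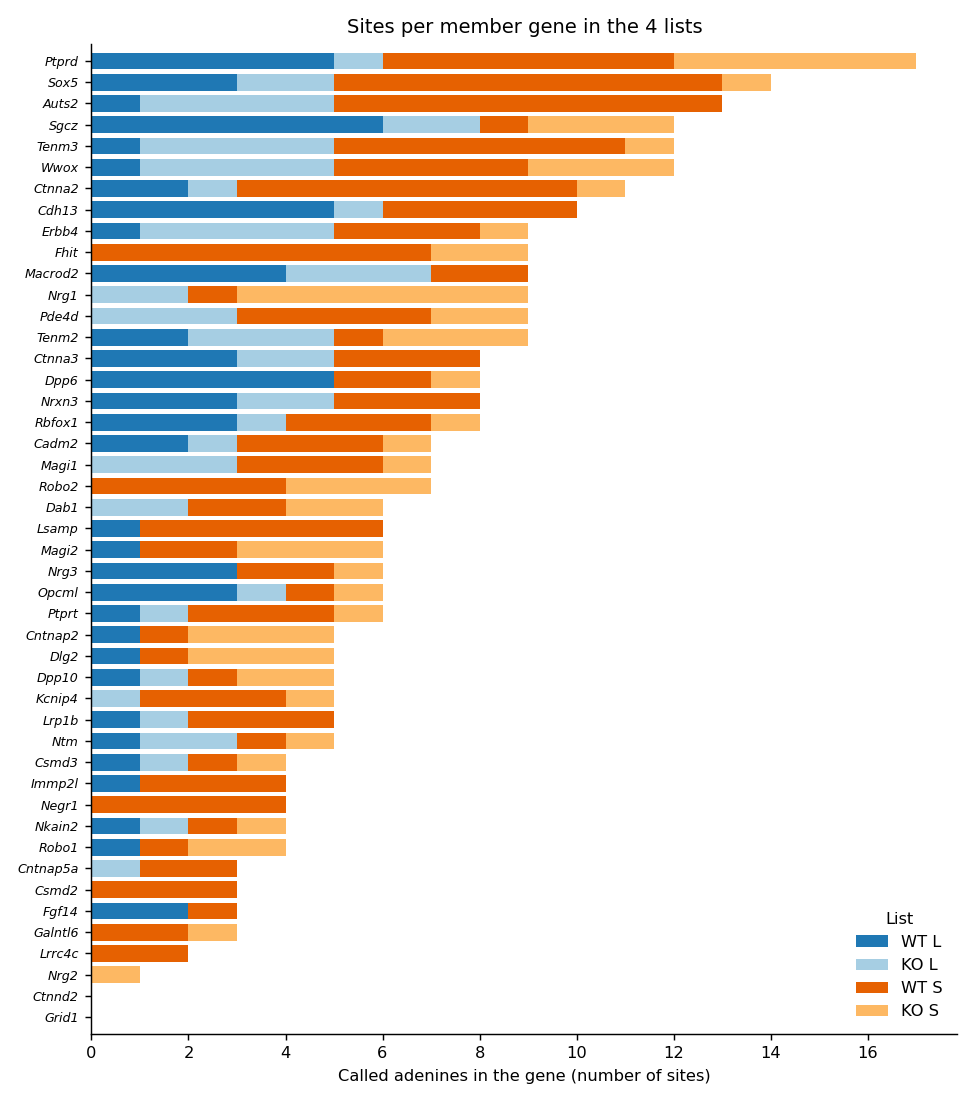
Number of called adenines (x axis) in each of the 46 genes (y axis), stacked by list and ordered by the sum. Ptprd leads with 17 sites, followed by Sox5 with 14 and Auts2 with 13, and Ctnnd2 and Grid1 have none.

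The second comparison set KO against WT within the genes. In S the genes held 0.461 times as many sites in KO as in WT (0.333 to 0.632), and in L 0.821 times as many (0.564 to 1.19). At a modification score of 30 or more the ratio in L was 1.57 (0.556 to 4.78), so its direction turned. It also turned at an identification score of 20 or more, to 1.17 (0.336 to 4.20). The ratio in L relative to the rest did not turn. It was 1.84 and 1.59 under these cuts and already above 1 without them (1.08). The rest of the autosomes had ratios of 0.455 in S (0.436 to 0.476) and 0.763 in L (0.724 to 0.804). The ratio in the genes divided by that in the rest was 1.01 in S (0.728 to 1.39) and 1.08 in L (0.736 to 1.57), so no difference from the rest was detectable in either part. Median coverage at the sites in the genes was 14 in S of WT and 10 in S of KO, and 11 and 12 in L of WT and L of KO. Depth at uncalled bases is unknown, and the part of depth in the fall in S was not tested.

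Per gene, KO was above WT in 12, below it in 20 and equal in 14 genes in L, and above in 9, below in 30 and equal in 7 in S. Of the 170 other genes of 500 kb or more, 40 were above, 56 below and 74 equal in L, and 37, 82 and 51 in S. In L, 6 genes had 3 or more sites more in KO (2.94% of the other long genes). They were Auts2, Erbb4, Magi1, Pde4d, Tenm3 and Wwox, each by 3. A difference of 3 or more in favour of WT in L was seen in 5 genes (2.94%), Dpp6 by 5, Cdh13, Ptprd and Sgcz by 4 and Nrg3 by 3. In S, Nrg1 alone had 3 or more sites more in KO (3.53%), with a difference of 5. In the other direction stood 13 genes (15.9%), led by Auts2 with a difference of 8, Sox5 with 7, Ctnna2 with 6 and Fhit, Lsamp and Tenm3 with 5. Longer genes hold more sites, so these shares are also given at 1000 kb or more. There, 4 and 4 of 32 members in L, and 1 and 9 in S, passed in favour of KO and WT, against 0 and 2 of 23 other genes in L and 1 and 9 in S.

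Several of these differences rested on sites close together. Counted as loci of 1 kb, 2 genes remained at 3 or more in favour of KO in L, Erbb4 and Wwox with 3 each (1.18% of the other long genes), and 3 in favour of WT, Dpp6 with 4 and Cdh13 and Sgcz with 3 (1.76%). In S, Nrg1 remained with 4 (1.76%), and 11 genes remained in favour of WT (13.5%). The Auts2 difference in S went from 8 sites to 3 loci, while that of Sox5 stayed at 7.

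**Figure D4:**
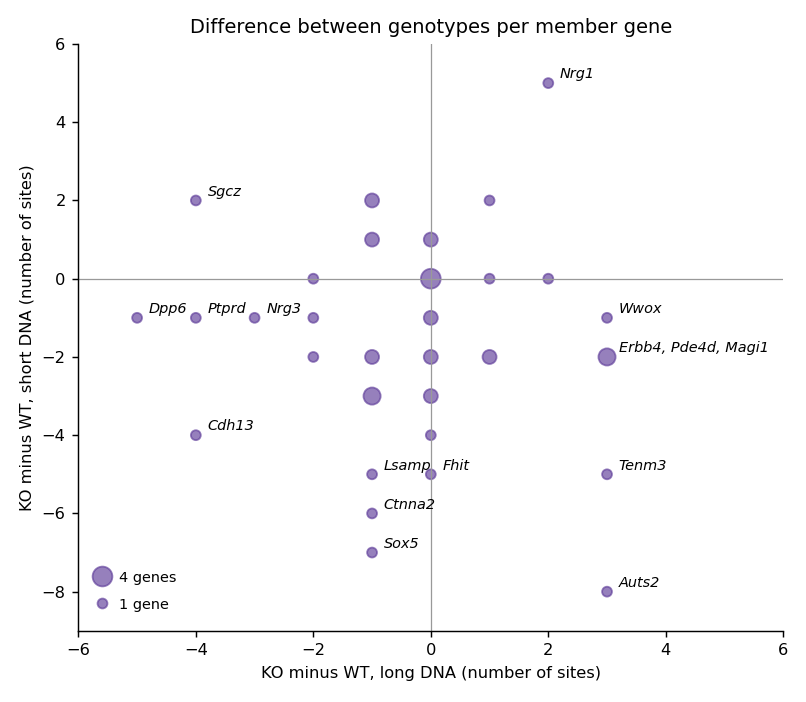
Difference in sites between KO and WT in each of the 46 genes, in long DNA (x axis) and in short DNA (y axis), where a point's area gives the number of genes at that position. Nrg1 lies highest, at 2 and 5, Auts2 lowest, at 3 and -8, and Cdh13 is the gene with 4 or more fewer sites in KO in both parts.

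The third comparison set short against long DNA. In WT the genes held 1.91 times as many sites in S as in L (1.41 to 2.61), and in KO 1.07 times as many (0.730 to 1.58). The WT ratio was 3.43 at a modification score of 30 or more, and the KO ratio was 0.429 (0.0715 to 1.88) at an identification score of 20 or more, which turned its direction. The rest of the autosomes had 1.88 (1.80 to 1.96) and 1.12 (1.06 to 1.19). The ratio in the genes divided by that in the rest was 1.02 in WT (0.747 to 1.39) and 0.955 in KO (0.647 to 1.41).

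No base inside the 46 genes was called in more than 1 list, and such bases were rare elsewhere, with 0 of 633 sites in the 170 other genes of 500 kb or more and 34 of 14863 in the rest of the autosomes (0.229%). Within 1 kb of a site of another list lay 4 of the 309 sites (1.29%), against 1.56% in the rest. They were the 3 WT L sites of the Sox5 cluster and the WT S site beside them, at position 144289137 of chromosome 6.

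Along the genes the sites showed no preference for a strand or for the 5′ end that was detectable. Strand was taken from the RefSeq promoter table, which held 34 of the 46 genes and 220 of the 309 sites. The called adenine lay on the coding strand in 107 of these (48.6%, 41.9% to 55.4%). With each gene cut into 5 equal lengths from its 5′ to its 3′ end, these held 37, 52, 46, 38 and 47 sites, and the one at the 5′ end 16.8% (12.1% to 22.4%). None of the 54 promoter windows of these 34 genes, of 300 bases each, held a site. At the density of the rest these windows would hold 0.101 sites, and 0.188% of 31342 other promoter windows held one. Within 5 kb of the windows lay 3 sites. The gap between neighbouring sites of a list in a gene had a median of 187, 145, 92.1 and 125 kb in L of WT, L of KO, S of WT and S of KO. Gaps of 100 bases or less made up 6 of 36, 5 of 27, 14 of 85 and 6 of 28, against 35 of 152, 23 of 102, 107 of 433 and 39 of 129 in the 1012 other long genes. Those genes were shorter, with a median of 294 kb, which leaves less room for wide gaps. Their median gap was 28.4, 31.3, 34.7 and 26.6 kb. Counted per site, such short gaps were 6 over 67, 5 over 55, 14 over 128 and 6 over 59 in the 46 genes. In the 1012 others they were 35 over 489, 23 over 373, 107 over 951 and 39 over 420.

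**Figure D5:**
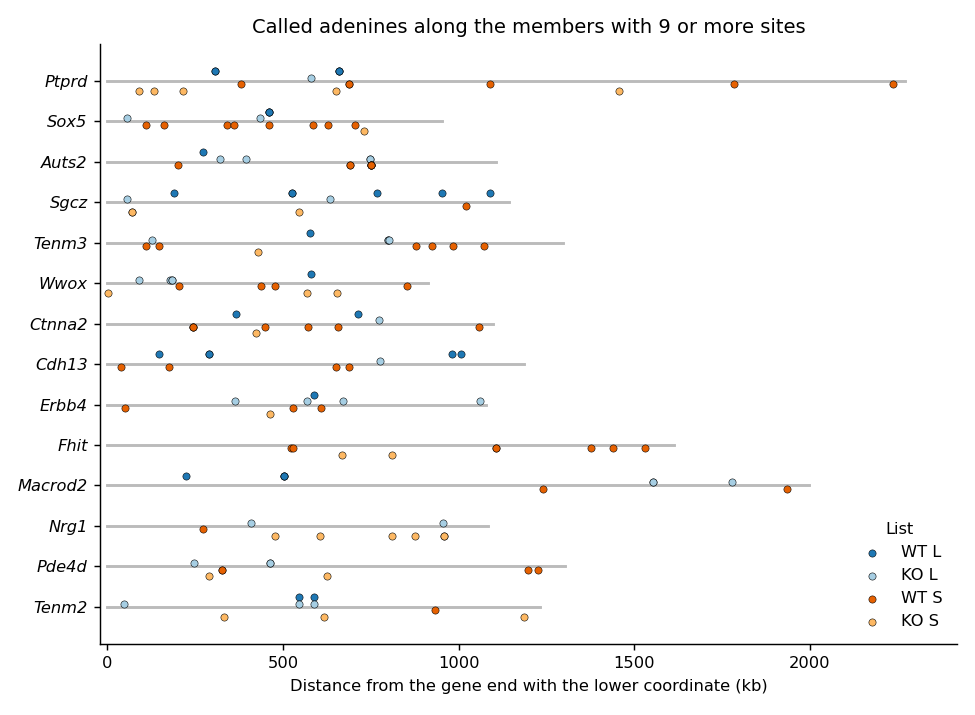
Position of each called adenine (points, coloured by list) in the 14 genes with 9 or more sites, as the distance in kb from the gene end with the lower coordinate (x axis), with grey lines for the genes. Sites are scattered over the whole length, and overlapping points mark clusters such as the 5 WT S sites of Auts2 and the 3 WT L sites of Sox5.

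The base after the called adenine was compared with that at the other autosomal sites of the same list. In L the genes had a lower share of AG, 8 of 67 sites or 11.9% in WT (5.30% to 22.2%) against 21.1% elsewhere, and 7 of 55 or 12.7% in KO (5.27% to 24.5%) against 22.9%. The odds ratios were 0.506 (0.208 to 1.07) and 0.492 (0.187 to 1.10), so that neither interval excluded 1. In S the AG share was 17.2% in WT against 21.1%, and 28.8% in KO against 27.5%. A step from the called adenine to T was more frequent in WT L, 43.3% against 30.2% with an odds ratio of 1.76 (1.04 to 2.95), and not in KO L, where 11 of 55 sites had it, against 25.6%. A CpG anywhere in the 41 bases was less frequent in KO S, 18.6% against 32.4% with an odds ratio of 0.478 (0.223 to 0.939), while the other 3 intervals included 1. The contexts held 59.7%, 57.9%, 61.9% and 60.1% A and T on average in L of WT, L of KO, S of WT and S of KO, against 59.5%, 58.9%, 59.3% and 57.6% elsewhere.

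The median IPD ratio in the genes was 2.54, 2.71, 2.56 and 2.91 in L of WT, L of KO, S of WT and S of KO, against 2.65, 2.66, 2.63 and 2.76 at the other autosomal sites. The median modified fraction, given at coverage of 11 or more, was 79.8% over 34 sites, 64.9% over 31, 69.1% over 89 and 89.9% over 28, against 74.0%, 70.2%, 72.4% and 78.7%. Coverage of 25 or more was seen at 2.99%, 1.82%, 7.81% and 6.78% of the sites in the genes, against 3.45%, 4.01%, 12.5% and 6.25% elsewhere, and the intervals of all 4 odds ratios included 1. The identification score, which states how well the kinetics fit N6-methyladenine, reached 20 at 6 of 67, 7 of 55, 8 of 128 and 3 of 59 sites. The share was 8.96% against 8.94% elsewhere in WT L, and 12.7% against 8.61% in KO L. In KO S it was 5.08% against 11.6%, with an interval of the odds ratio that included 1. In WT S it was 6.25% against 13.5% elsewhere, with an odds ratio of 0.428 (0.180 to 0.876). Below a coverage of 25 it was 5.93% against 11.6% with an odds ratio of 0.479 (0.187 to 1.03), where the interval included 1. Of the odds ratios computed for 6 properties in 4 lists, none was adjusted for their number.

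Relatives of the 46 genes by family, a list of 68 genes drawn up with earlier results of these data known, held 30 sites in L of WT, 19 in L of KO, 56 in S of WT and 23 in S of KO. These genes were shorter, with a median of 141 kb, and 25 of them held no site. Among those with 5 or more sites were Csmd1 with 14, Slit3 and Sox6 with 7 each, Sgcd with 6 and Cntnap5c and Rbfox3 with 5 each. Sox6, which encodes the other main SoxD factor, held 4, 0, 3 and 0 sites beside the 3, 2, 8 and 1 of Sox5. No relative had a density whose interval excluded that of the rest of the autosomes. For the relatives without a site this could not have come out otherwise. They were so short that the upper bound was 10.1 sites per Mb (Kcnip1) or more, above the density of the rest.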

How the data were processed

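Native H2A.X chromatin immunoprecipitation and single-molecule sequencing were done on 8 samples, 2 in each of 4 groups. The authors deposited lists of adenines called as N6-methyladenine by a step the files name kinModCall, and the submitters' processing notes name mm10. For the aligner, filters and caller version, nothing is stated in the labels or headers. Each deposited line gives a modification score (lowest 20), coverage at the base, the IPD ratio (observed over predicted), an identification score and, at coverage of 11 or more, the modified fraction, here printed as a percent. Coverage of uncalled bases is not listed, so depth could not be normalized.

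Sites were placed in genes by the RefSeq gene table (GRCm38.p6), after leaving out 328 entries on autosomes that start before 3 Mb. The autosomal length, 2400 Mb, runs from the first site to the last gene end or site of each chromosome, and gaps in the assembly were not removed. Densities were compared by ratios with exact conditional intervals (Clopper-Pearson, 95%), and shares by exact odds ratios. With 1 list per group there is no test between groups and no p-value. Genes with 5 or more sites are given in every list, and some others by group. Some relatives that met the same limit are not reported here. The members and lists were chosen with earlier results of these data known, and the sum over the 4 lists, the 500 kb reference and the restriction to low coverage were added after seeing the data. Python 3.11.15, numpy 2.4.6, scipy 1.17.1, pandas 2.3.3 and matplotlib 3.10.9 were used.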

Additional observations from a re-analysis of the deposited data

Results flagged for a closer look

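Auts2 and Tenm3 moved in opposite directions in the 2 parts of the DNA. In Auts2 the difference of KO minus WT was 3 sites in L and -8 in S, and in Tenm3 it was 3 in L and -5 in S. With sites within 1 kb counted as 1 locus the differences were 2 and -3 in Auts2 and 1 and -5 in Tenm3. As loci, neither gene reached a difference of 3 in L. By sites these were 2 of 46 genes, against 0% of the 170 other genes of 500 kb or more and 2 of the 1012 other protein-coding genes at least as long as the shortest of the 46. Both genes are longer than 1000 kb, and 0 of the 23 other genes of 1000 kb or more passed. The difference between L and S was not tested, since each rests on 1 list per group.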

How the results depend on the processing

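The interval of the KO to WT ratio in S and that of the S to L ratio in WT each excluded 1 in 10 of 11 settings. Several of these settings kept nearly the same sites. The exception for both was an identification score of 20 or more. There the KO to WT ratio in S was 0.375 (0.0641 to 1.56) and the S to L ratio in WT 1.33 (0.406 to 4.66). The density ratio in WT S, whose interval included 1, excluded it in 3 of 15 settings, and the density ratios crossed 1 in the settings named here only with intervals that included 1. At a modification score of 30 or more, the density ratio in WT L was 0.602, the KO to WT ratio in L was 1.57 (1.84 relative to the rest) and the S to L ratio in WT was 3.43. At coverage of 11 or more, the KO to WT ratio in S was 0.315 and the S to L ratio in WT 2.62. At an identification score of 20 or more, the density ratio was 1.33 in L of KO, 0.395 in S of WT (0.170 to 0.782) and 0.379 in S of KO, and the KO to WT ratio in L relative to the rest was 1.59. The S to L ratio was then 1.33 in WT (0.470 relative to the rest) and 0.429 in KO (0.284 relative to the rest). Against other protein-coding genes of 500 kb or more, a reference added after seeing the data, the density ratio was 1.15 for L and 1.03 for S of WT. The cause of these shifts was not tested, and the stricter settings leave few sites. No paired analysis was possible because each list holds both replicates together, and for the same reason no replicate could be left out.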

Other observations

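The genes were also set against the rest of their own chromosome, and densities were not compared between chromosomes. Over the 4 lists together, the genes on chromosome 1 had 0.587 times the density of the rest of their chromosome (0.341 to 0.943), those on chromosome 2 had 0.577 (0.360 to 0.879), Dlg2 on chromosome 7 had 0.418 (0.135 to 0.979) and Csmd3 with Ctnnd2 on chromosome 15 had 0.323 (0.0877 to 0.831). The intervals of the other 13 chromosomes included 1. The 6 genes on chromosome 8, Sgcz, Tenm3, Wwox, Cdh13, Nrg1 and Galntl6, held 58 sites and had a ratio of 1.00 (0.756 to 1.31). The bounds were not adjusted for the 17 chromosomes.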
